A study of Mus musculus with 4 samples.

Results

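Type 17 gamma-delta T cells, lymphocytes that carry the gamma-delta form of the T cell receptor and make interleukin 17 (IL-17), were chosen from kidney single-cell transcriptomes by a gate on UMIs (unique molecular identifiers, which count captured RNA molecules). A cell entered the gate with at least 200 genes, at least 2 UMIs over the receptor chains Cd3d, Cd3e and Cd3g, at least 1 UMI of Trdc (the delta constant region), at least 2 UMIs over Il17a, Il17f, Cd163l1 and Blk, and 0 UMIs of Cd4 and of Cd8b1. The gate held 278 of 15777 cells with at least 200 genes, 17 of 4396 in the panobinostat library, 102 of 3472 in the givinostat library, 66 of 3979 in the ruxolitinib library and 93 of 3930 in the vehicle library. Levels of these 10 gate genes chose the cells and are given below as a description. On GRCm38 Il17a lies on chromosome 1 at 20730905 to 20734496, Il17f on chromosome 1 at 20777146 to 20790617, Cd163l1 on chromosome 7 at 140218267 to 140231145, Blk on chromosome 14 at 63372836 to 63417037 and Trdc on chromosome 14 at 54142851 to 54148868.

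Whole kidneys of male C57Bl/6 mice aged 9 weeks were dissociated and run as droplet libraries, with 1 library per group. Every group carried the alleles Pax2.rtTA;TetO.Cre;R26.Confetti, an inducible Cre under Pax2 control with a multicolour reporter, and every group had received anti-GBM serum (antibodies to the basement membrane of the glomerulus), a model of crescentic glomerulonephritis. The drugs were panobinostat (15 mg/kg), givinostat (10 mg/kg) and ruxolitinib (60 mg/kg), the vehicle was distilled water, dosing began on day 1 and kidneys were taken on day 7. Panobinostat and givinostat inhibit histone deacetylases, while ruxolitinib blocks the kinases JAK1 and JAK2. The labels name 2 animals in each group without saying whether both are in the library, and no mice without serum entered the comparisons. Values of a drug library and the vehicle library therefore have no replicate check, their intervals cover counting error alone, and a difference belongs to these libraries. All 3 drug comparisons share the vehicle library.

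Type 17 gamma-delta T cells leave the thymus with their cytokine program already set and answer interleukin 23 and interleukin 1 quickly, without the priming that conventional T cells need. The transcription factors Maf and Sox13 take part in setting their program, and their IL-17A makes tissue cells release factors that draw in neutrophils. In mouse crescentic glomerulonephritis they are known as an early source of IL-17A beside the later type 17 CD4 T cells. Mouse type 17 gamma-delta T cells fall mainly into a group with the Vgamma6 and Vdelta1 receptor chains and a group with the Vgamma4 chain.

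The promoters of both cytokine genes of the gate and of the interleukin 23 receptor gene are shown because their products define this cell type. Each window holds the 250 bases before the RefSeq start on GRCm38.p6, read 5′ to 3′ on the gene's own strand, and capitals mark AGGTCA or its reverse complement, a hexamer that nuclear receptors are known to bind. The Il17a window is chr1:20730655-20730904 on the plus strand, that of Il17f is chr1:20784271-20784520 on the minus strand, and that of Il23r is chr6:67491856-67492105 on the minus strand.
Il17a: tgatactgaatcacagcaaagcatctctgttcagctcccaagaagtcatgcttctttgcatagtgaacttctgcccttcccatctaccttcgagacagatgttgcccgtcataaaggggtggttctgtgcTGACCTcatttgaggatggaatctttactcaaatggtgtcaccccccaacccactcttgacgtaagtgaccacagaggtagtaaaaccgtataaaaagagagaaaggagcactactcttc
Il17f: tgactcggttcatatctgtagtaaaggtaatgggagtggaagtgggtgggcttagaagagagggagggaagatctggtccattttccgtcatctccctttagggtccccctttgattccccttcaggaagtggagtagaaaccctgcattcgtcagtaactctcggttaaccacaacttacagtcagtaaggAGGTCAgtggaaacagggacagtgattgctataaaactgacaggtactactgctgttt
Il23r: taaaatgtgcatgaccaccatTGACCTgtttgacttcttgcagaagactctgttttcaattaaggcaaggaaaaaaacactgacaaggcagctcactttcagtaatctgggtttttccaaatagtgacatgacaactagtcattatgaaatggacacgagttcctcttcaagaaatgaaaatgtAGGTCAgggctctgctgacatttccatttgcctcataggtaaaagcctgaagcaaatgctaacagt
The hexamer stood 120 to 115 bases before the start of Il17a, 58 to 53 bases before that of Il17f, and 229 to 224 as well as 66 to 61 bases before that of Il23r. The window of Cd163l1, at chr7:140218017-140218266, held none. Of all 32841 promoter windows of this length, 4607 (14%) held AGGTCA on either strand, so a match is a description of these letters. The STAT motif TTCNNNGAA, whose fixed bases read the same on both strands, was in 2306 windows (7.02%) and in none of these 4.

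Il17a was the most abundant of the 4 cytokine and surface genes of the gate. Its level, in CPM (UMIs of the gene over all UMIs of the gated cells of a library, scaled to 1 common total), was 2991 CPM in panobinostat cells, 3086 CPM in givinostat cells, 2192 CPM in ruxolitinib cells and 2101 CPM in vehicle cells. The 4 libraries were within 1.5-fold of one another, and a UMI of Il17a or Il17f was found in 242 of 278 gated cells (87.1%, exact 95% interval 82.5 to 90.8%). Among cells without a Cd3 UMI, a UMI of Il17a was found in 0.026%, 1.71%, 0.555% and 0.633% in the panobinostat, givinostat, ruxolitinib and vehicle libraries. The T cell receptor gene Trac had a UMI in 2.47%, 3.87%, 3.14% and 3.03% of the same cells. Whether these UMIs came from free RNA or from T cells was not tested. Il17f, the close relative of Il17a in the same gene cluster, was lower, at 387, 270, 178 and 264 CPM in panobinostat, givinostat, ruxolitinib and vehicle cells. Both cytokine genes were found together in 78 cells, and Il17f without Il17a in 15.

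Production of Il17a was uneven from cell to cell. The median was 8, 15, 5 and 7 UMIs per cell in panobinostat, givinostat, ruxolitinib and vehicle cells, while single cells reached 52, 144, 164 and 60 UMIs. With each cell thinned to 2900 UMIs the mean was 7.41, 9.63, 6.98 and 7.11 UMIs in the same order of libraries. The higher median of givinostat cells stood beside their greater depth, with a median of 7045.5 UMIs per gated cell against 3760 in panobinostat, 5248.5 in ruxolitinib and 4512 in vehicle cells. Blk, a Src-family kinase known for its part in the development of these cells, was at 402, 375, 310 and 305 CPM in panobinostat, givinostat, ruxolitinib and vehicle cells. Cd163l1, a scavenger receptor also known as Scart1, was at 208, 356, 189 and 243 CPM. Trdc was at 1607, 1405, 998 and 1216 CPM, with a median of 6, 7, 4.5 and 6 UMIs per cell.

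Few cells lay at the edge of the gate's threshold over Il17a, Il17f, Cd163l1 and Blk. Of 513 Cd3 cells with Trdc and without Cd4 or Cd8b1, 12 had exactly 2 UMIs over Il17a, Il17f, Cd163l1 and Blk and lay just inside, 21 had 1 UMI and lay just outside, and 214 had none. Most gated cells lay further inside, 78 with 4 to 9 UMIs and 167 with 10 or more. At the Trdc threshold, 22 gated cells had exactly 1 UMI. Before cells with Cd4 or Cd8b1 were removed, the gate held 17, 105, 68 and 96 cells in the panobinostat, givinostat, ruxolitinib and vehicle libraries.

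Panobinostat kidneys held the smallest share of these cells. Gated cells made up 0.387% of kept cells (exact 95% interval 0.225 to 0.618%) in the panobinostat library, against 2.37% (1.91 to 2.89%) in the vehicle library, a ratio of 0.163 (0.0913 to 0.276). The givinostat share was 2.94% (2.40 to 3.56%), or 1.24 times (0.928 to 1.66) that of vehicle, and the ruxolitinib share was 1.66% (1.29 to 2.11%), or 0.701 times (0.503 to 0.971). The panobinostat interval lay wholly under the other 3, while the givinostat and vehicle intervals overlapped. Among Cd3 cells the shares were 3.37%, 11.1%, 9.84% and 10.7% in panobinostat, givinostat, ruxolitinib and vehicle libraries, so the ratio to vehicle was 0.313 (0.175 to 0.529) under panobinostat, 1.03 (0.771 to 1.38) under givinostat and 0.916 (0.658 to 1.27) under ruxolitinib.

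Within the gamma-delta T cells themselves the panobinostat library stood apart. Type 17 cells were 22.4% of 76 gamma-delta T cells under panobinostat, 66.7% of 153 under givinostat, 57.9% of 114 under ruxolitinib and 54.7% of 170 under vehicle. The other large fraction, cells with Xcl1 or Cd160 and no UMI of the 4 type 17 gate genes, was 57.9% of them under panobinostat, 22.2% under givinostat, 27.2% under ruxolitinib and 32.9% under vehicle. The libraries differed in the lowest UMI count of any cell, at 2920, 5272, 3817 and 3723 for panobinostat, givinostat, ruxolitinib and vehicle, close under the median gated cell given above. With every library held to 5272 UMIs, 1, 102, 33 and 21 gated cells were left, and the ratio to vehicle was 0.0496 (0.0012 to 0.308) under panobinostat, 4.0 (2.49 to 6.74) under givinostat and 1.44 (0.811 to 2.63) under ruxolitinib. With each floor set instead at 75.23% of the library's own median Cd3 cell, those ratios were 0.136, 1.10 and 0.629. The panobinostat share was below that of vehicle at each floor, whereas the givinostat and ruxolitinib ratios moved with it. Without cells that had 2 or more UMIs over Trac, Trbc1 and Trbc2, 4, 5, 3 and 11 gated cells were left in the panobinostat, givinostat, ruxolitinib and vehicle libraries, with ratios to vehicle of 0.325 (0.0755 to 1.10), 0.515 (0.140 to 1.61) and 0.269 (0.0483 to 1.02).

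**Figure D1:**
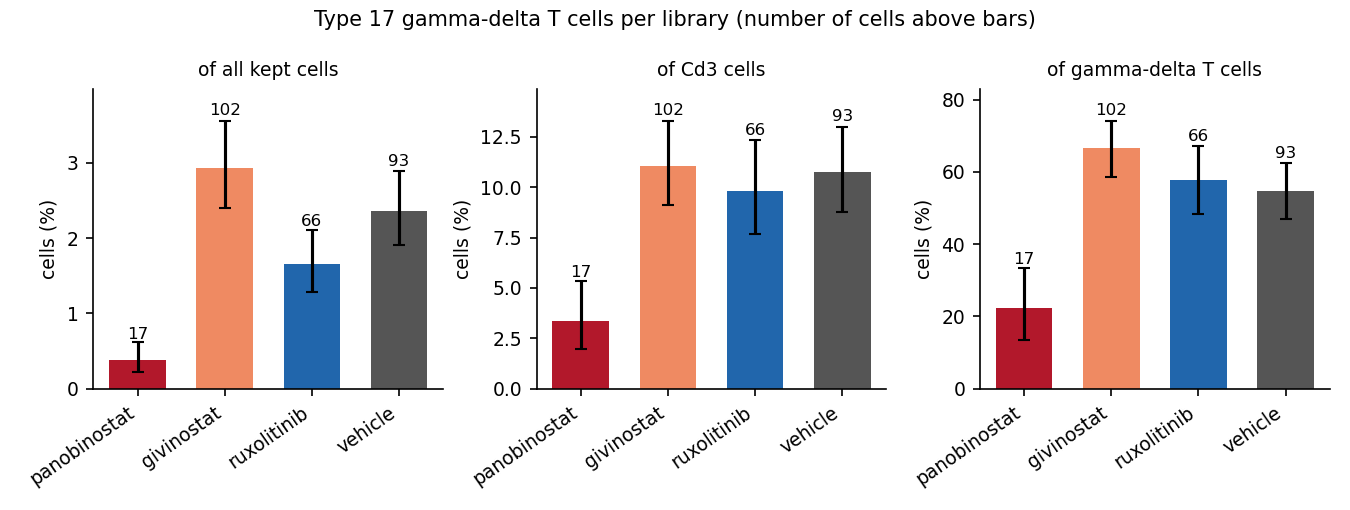
Share of type 17 gamma-delta T cells in each library (percent, vertical axes) among all kept cells, among Cd3 cells and among gamma-delta T cells. Bars are 1 library each, error bars exact 95% binomial intervals that cover counting error, and numbers the gated cells; panobinostat, with 17 cells, is lowest in all 3 panels.

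The 5 markers of the label, Il17a, Trdc, Tcrg-C1, Cd163l1 and Blk, were present in all 4 libraries. Tcrg-C1, a gamma constant region that the gate did not use, was at 491, 530, 321 and 292 CPM in panobinostat, givinostat, ruxolitinib and vehicle cells. The gamma constant regions are close copies, so reads may be shared among them. Markers of other lymphocytes were low apart from alpha-beta receptor genes. Of 8 natural killer (NK) cell markers, Ncr1 and Eomes had no UMI in any library and the summed level was at most 17 CPM. The 7 B and plasma cell markers summed to 89.3, 98.5, 45.6 and 45.5 CPM in panobinostat, givinostat, ruxolitinib and vehicle cells, with 2, 4, 3 and 2 of them detected and with Cd79a and Ms4a1 at 0. The 5 innate lymphoid markers summed to 104, 97.3, 77.5 and 106 CPM. The alpha-beta, CD4 and CD8 T cell list summed to 1176, 1394, 1374 and 1323 CPM through its receptor genes, with the regulatory T cell factor Foxp3 at 0. Trac, the alpha constant region, had a UMI in 84 of 278 cells, and 255 cells had at least 2 UMIs over Trac, Trbc1 and Trbc2. Trbc1 alone was at 528 ± 74.7 CPM in the gated cells and 698 ± 163 CPM in the Xcl1 or Cd160 gamma-delta T cells (mean ± SD over the 4 libraries).

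RNA of kidney and myeloid cells was present and differed between libraries. The 10 proximal tubule markers summed to 1920, 6135, 9372 and 8425 CPM in panobinostat, givinostat, ruxolitinib and vehicle cells. The 16 macrophage, monocyte and dendritic cell markers summed to 521, 926, 2999 and 5727 CPM, with 5, 14, 14 and 15 of them detected. No doublet caller was run. Leaving out cells with at least 3 UMIs of other lineages or over 2 times the library's median UMI count removed 0, 8, 7 and 10 of the gated cells in the panobinostat, givinostat, ruxolitinib and vehicle libraries. Cell barcodes were shared between libraries in 19 cases, 2 of them gated in 1 of the libraries and none in both.

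The gated cells were set beside other T cell sets of the same 4 libraries. Themis was very low beside type 17 alpha-beta T cells, and Cd28 and Lck were very low beside these and beside other gamma-delta T cells. Type 17 alpha-beta T cells (136 cells, with at least 2 UMIs of Il17a and Il17f and at least 2 of Trac, Trbc1 and Trbc2, and without Trdc, Tcrg-C1 or Cd8b1) were compared first. UMIs were summed per library and cell set, and edgeR's quasi-likelihood test with library as a block was run on the 4 pairs of sums. The 4 libraries had 4 different treatments, so the spread between them includes treatment. Among 5080 genes, 64 were higher (1.26%) and 41 lower (0.807%) in the gamma-delta cells at an adjusted p under 0.05. Without the ruxolitinib library 32 were higher, and without the vehicle library 35. Both sets were chosen by expression, and the gate genes of either were left out of the test.

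The genes with the lowest log2 fold changes were Themis, Trat1, Cd6, Cd40lg and Cd28, followed by Lck. The lower genes named here passed the count filter through the alpha-beta cells alone, so their fold changes and p-values are a description. Themis, needed for thymocyte selection, was at 0, 1.22, 0 and 0 CPM in gamma-delta cells of the panobinostat, givinostat, ruxolitinib and vehicle libraries, against 65.7, 100, 91.8 and 56.4 CPM in the alpha-beta cells. The single UMI in gamma-delta cells gave a ratio of 0.00694 (0.000174 to 0.0398, counting error). Cd28, the main costimulatory receptor, was at 29.8, 15.8, 27.3 and 5.69 CPM in gamma-delta cells, against 1019, 705, 691 and 659 CPM in alpha-beta cells. The sets did not overlap, and the log2 fold change of Cd28 was -5.40 ± 0.29 (SE, edgeR adjusted p 8.62e-07). Lck, the kinase that starts signalling from the T cell receptor, was at 0, 10.9, 6.84 and 1.90 CPM in gamma-delta cells, against 197, 241, 174 and 245 CPM in alpha-beta cells, with a log2 fold change of -5.00 ± 0.36 (edgeR adjusted p 4.97e-06). Lck RNA was thus near 0 in cells that the gate had in part chosen for its relative Blk. The receptor adaptor Trat1, the coreceptors Cd6 and Cd5 and the helper ligand Cd40lg were lower too, Cd5 at 21.9 ± 16 CPM in gamma-delta cells and 297 ± 94.5 CPM in alpha-beta cells (SD, n = 4 libraries, edgeR adjusted p 4.97e-06). The growth cytokine Il2, the T cell protease inhibitor Ctla2a and the sulfotransferase Chst2 completed the list, with log2 fold changes of -4.13 ± 0.53, -4.80 ± 0.31 and -3.64 ± 0.61 (edgeR adjusted p 0.000843, 4.24e-06 and 0.00691). Without the ruxolitinib library the call of Chst2 was lost (log2 fold change -3.49, edgeR adjusted p 0.0718).

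Lck and Cd28 were also low beside the other gamma-delta T cells. In Xcl1 or Cd160 gamma-delta T cells (165 cells) Lck was at 345, 256, 279 and 311 CPM in the panobinostat, givinostat, ruxolitinib and vehicle libraries, and the log2 fold change of type 17 over these cells was -5.39 ± 0.34 (edgeR adjusted p 2.72e-06). Cd28 was at 474, 333, 382 and 399 CPM there, with a log2 fold change of -4.56 ± 0.30 (edgeR adjusted p 3.60e-06). The adhesion receptor Cd2, at 14.9, 15.8, 25.1 and 17.1 CPM in type 17 gamma-delta T cells, followed the same order, with log2 fold changes of -3.61 ± 0.25 against the alpha-beta cells and -3.87 ± 0.23 against the other gamma-delta cells (edgeR adjusted p 4.97e-06 and 1.70e-06). Other parts of the receptor machinery did not share this pattern. Zap70, the kinase downstream of Lck, was at 164, 190, 109 and 116 CPM in type 17 gamma-delta T cells, with a log2 fold change of 0.40 ± 0.20 against Xcl1 or Cd160 cells (edgeR adjusted p 0.248), and Cd247, the zeta chain, was higher by 0.97 ± 0.18 (edgeR adjusted p 0.00384). Cd2, Zap70 and Cd247 were chosen after their values were seen. Lck, Cd28 and Cd2 passed the count filter through the comparison cells alone, so their fold changes and p-values are a description.

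Genes higher than in type 17 alpha-beta T cells were led by Abi3bp, an extracellular matrix binding protein, at 372, 159, 196 and 150 CPM in gamma-delta cells of the panobinostat, givinostat, ruxolitinib and vehicle libraries, against 0, 9.40, 29.0 and 2.17 CPM in alpha-beta cells. Its log2 fold change was 4.05 ± 0.42 (edgeR adjusted p 0.000141). Sox13, a factor known to set the gamma-delta type 17 lineage, was at 59.5, 112, 70.7 and 75.9 CPM against 0, 0, 14.5 and 4.34 CPM, and its log2 fold change was 4.01 ± 0.55 (edgeR adjusted p 0.00148). In both genes every gamma-delta value lay above every alpha-beta value. Both, like other genes near 0 in alpha-beta cells, passed the count filter through the gamma-delta cells alone, and their tests are a description. Zbtb16, the factor PLZF of innate-like lymphocytes, was higher by 1.91 ± 0.39 (edgeR adjusted p 0.0220), and Ikzf2, which encodes Helios, by 2.46 ± 0.28 (edgeR adjusted p 0.000302). The potassium channel Kcnk1, the crystallin Cryba4, the phosphodiesterase Pde5a, the cystatin Cst7 and the myosin Myo1e also stood among the top 10, with log2 fold changes between 2.37 and 3.76. The call of Pde5a was lost without the givinostat library (edgeR adjusted p 0.142) and that of Cst7 without the ruxolitinib library (edgeR adjusted p 0.0517). Tcrg-C4 and Tcrg-C2 were also in the top 10, and their level follows in part from the gate, since alpha-beta cells had to lack Trdc and Tcrg-C1. The call of Tcrg-C2 was lost without the panobinostat library (edgeR adjusted p 0.0833) and without the vehicle library (edgeR adjusted p 0.0919).

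Most type 17 factors and receptors did not pass the test between both kinds of type 17 cells, as most genes at large did not. Over all 5080 genes 1.26% were higher and 0.807% lower, and both lists held a larger share of higher genes. Of 17 type 17 transcription factors tested, 2 were higher (Sox13 and Zbtb16) and none lower in gamma-delta cells, with a median log2 fold change of 0.16 beside 0.011 over all genes. Maf was at 467 ± 99.9 CPM in gamma-delta cells and 413 ± 60.7 CPM in alpha-beta cells, a log2 fold change of 0.16 ± 0.18 (edgeR adjusted p 0.904). Il23r, at 55.1 ± 24.7 CPM in gamma-delta cells and 46.6 ± 35.4 CPM in alpha-beta cells (SD, n = 4), did not pass (edgeR adjusted p 0.382). Of 28 receptors and surface genes tested, 7 were higher, among them Il7r, Il2ra, Itgae, Cxcr6 and Aqp3, and Il6ra was lower by 2.57 ± 0.45 (edgeR adjusted p 0.00927). Il7r, the survival receptor for interleukin 7, was at 1071, 862, 969 and 780 CPM against 657, 564, 710 and 445 CPM.

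Effector and activation genes split in both directions. The lymphotoxin gene Ltb was higher by 0.69 ± 0.15 (edgeR adjusted p 0.0343), while Tnfsf8 was lower by 3.26 ± 0.25 and Tnfsf11, which encodes RANKL, by 1.38 ± 0.23 (edgeR adjusted p 9.19e-06 and 0.00670), and 4 of 10 effectors tested passed in all. The costimulatory receptor Icos and the checkpoint receptor Ctla4 were lower by 1.44 ± 0.17 and 2.82 ± 0.20 (edgeR adjusted p 0.000363 and 4.97e-06). Another checkpoint receptor gene, Pdcd1, which encodes PD-1, was higher by 3.23 ± 0.57 (edgeR adjusted p 0.0106) in 3 of 4 libraries. In the immediate early and stress list 6 of 29 genes were higher, Dusp1, Fos, Fosb, Hspa1b, Jun and Jund, and none lower. None of 18 JAK-STAT genes, 20 glycolysis and lipid genes or 13 survival genes tested passed at an adjusted p of 0.05, beside 1.26% higher and 0.807% lower over all genes. Il22 was below the count filter, at 14.9, 3.65, 16 and 9.49 CPM in gamma-delta cells against 0, 132, 82.2 and 49.9 CPM in alpha-beta cells of the panobinostat, givinostat, ruxolitinib and vehicle libraries.

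**Figure D2:**
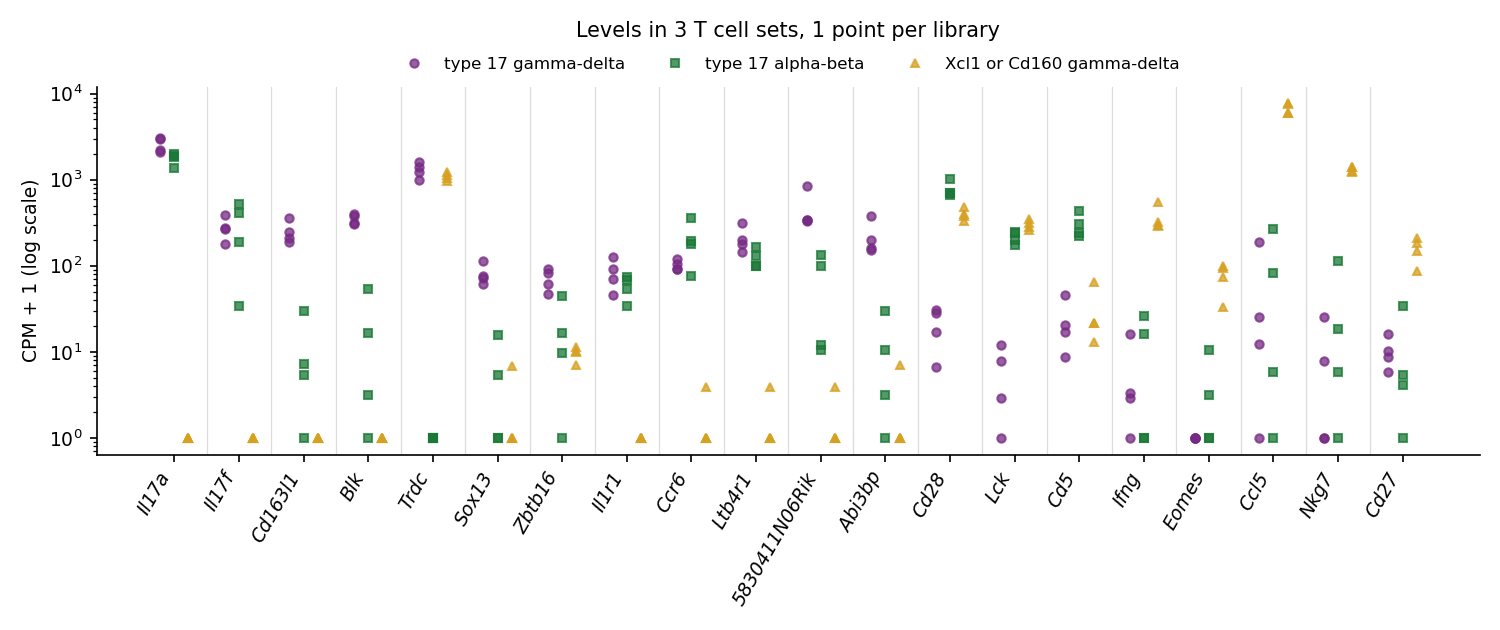
Levels (CPM + 1, log axis) of gate and other genes in type 17 gamma-delta, type 17 alpha-beta and Xcl1 or Cd160 gamma-delta T cells, with 1 point per library. Il17a, Il17f, Cd163l1, Blk and Trdc belong to the gates; Cd28 and Lck are lowest in type 17 gamma-delta T cells, and Ifng, Ccl5 and Nkg7 are highest in Xcl1 or Cd160 gamma-delta T cells.

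Against the Xcl1 or Cd160 gamma-delta T cells, 332 of 4323 genes were higher (7.68%) and 344 lower (7.96%) in type 17 gamma-delta T cells. The genes that were higher were led by type 17 genes and those that were lower by NK and killer cell genes. Without the givinostat library 221 were higher and 194 lower, and without the vehicle library 201 were lower. The other set was chosen by Xcl1 or Cd160, both genes of killer cells, and by having no UMI of Il17a, Il17f, Cd163l1 and Blk. Differences in type 17 and killer cell genes therefore follow in part from how both sets were chosen. Genes with 0 to 3 UMIs in 1 of the sets passed the count filter through the other set alone. The interleukin 1 receptor Il1r1 had no UMI in the 165 Xcl1 or Cd160 cells of any library and was at least 33.3-fold higher in type 17 cells, with the comparison set at a floor of 3 UMIs over the group. By the same floor Il23r was at least 22.5-fold higher. Ltb4r1, the receptor for the neutrophil attractant leukotriene B4, was at 313, 179, 144 and 195 CPM in panobinostat, givinostat, ruxolitinib and vehicle type 17 cells, against 1 UMI in all Xcl1 or Cd160 cells, a ratio of 182 (32.5 to 7215, counting error). The chemokine receptor Ccr6 also had 1 UMI there and a ratio of 96.5 (17.1 to 3833). Abi3bp, Pxdc1, the water and glycerol channel Aqp3, the carboxypeptidase Cpm, Ly6g5b and the TNF receptor Tnfrsf25 were the other named genes, each with 1 or 2 UMIs in the Xcl1 or Cd160 cells. Il23r was below the count filter and was not tested. The others passed edgeR's test, but they reached it through the type 17 cells alone, so the call adds no support.

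Nearly all tested receptors of the type 17 program were higher, a direction that the choice of both sets favours. Of 30 type 17 receptors and surface genes 23 were tested, of which 22 were higher and 1, the tetraspanin Cd9, lower, with a median log2 fold change of 3.03 beside -0.0057 over all genes. Over all genes 7.68% were higher and 7.96% lower. Members near 0 in the Xcl1 or Cd160 cells passed the count filter through the type 17 cells alone. Ramp1, a subunit of the receptor for the neuropeptide CGRP, was at 1012, 965, 843 and 816 CPM in panobinostat, givinostat, ruxolitinib and vehicle type 17 cells, against 101, 97.0, 96.9 and 167 CPM in Xcl1 or Cd160 cells, a log2 fold change of 2.89 ± 0.20 (edgeR adjusted p 4.32e-06). Cxcr6, a receptor of tissue-resident T cells, was at 908, 611, 442 and 408 CPM against 50.6, 173, 12.1 and 91.0 CPM, a log2 fold change of 2.73 ± 0.38 (edgeR adjusted p 0.000549). Neither gene's values overlapped between the sets. Of 17 type 17 transcription factors, 11 were higher and 1, Nfkbiz, lower, with a median of 0.89. Maf was higher by 3.02 ± 0.20 (edgeR adjusted p 3.77e-06) and Rora by 2.78 ± 0.16 (edgeR adjusted p 1.70e-06). Sox13 was at 79.5 ± 22.7 CPM in type 17 cells, against 2 UMIs in all Xcl1 or Cd160 cells, a ratio of 45.5 (12.4 to 379).

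Killer and type 1 genes went the other way, which the choice of both sets also favours. All 20 members of that list that were tested were lower, with a median log2 fold change of -4.10, beside 7.96% lower over all genes. The other 6 of its 26 members were not tested because of low counts or as gate genes. Members near 0 in type 17 cells, such as Eomes, Ncr1, Klre1, Ifng and Nkg7, passed the count filter through the Xcl1 or Cd160 cells alone. Their tests are a description. Ifng had 3 UMIs in the 278 type 17 cells and was at 548, 298, 321 and 288 CPM in Xcl1 or Cd160 cells of the panobinostat, givinostat, ruxolitinib and vehicle libraries, a ratio of 0.00459 (0.000943 to 0.0135). Ccl5, a chemokine of cytotoxic lymphocytes, was at 0, 189, 11.4 and 24.7 CPM in type 17 cells, against 7676, 5952, 7663 and 5889 CPM, a log2 fold change of -7.09 ± 0.59 (edgeR adjusted p 1.57e-05). The granule gene Nkg7 was at 7.79 ± 11.5 CPM against 1320 ± 85.7 CPM (SD, n = 4, edgeR adjusted p 3.60e-06). Eomes, the NK receptor Ncr1, Samd3 and the Ly49 receptors Klra5 and Klra7 had no UMI in type 17 cells and were at least 41.6-, 58.7-, 60.5-, 106- and 89.3-fold lower. Ly49 receptors are close copies, so reads may be shared among them. Klre1 and the Notch target Nrarp, with 2 UMIs and 1 UMI in type 17 cells, were the other named genes.

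Further groups held genes in both directions, beside 7.68% higher and 7.96% lower over all genes. Counts of 2 or 3 genes in a short list are too small to tell it from that share. Of 25 residency, homing and activation genes, 9 were higher, among them Cd44, Icos and Thy1, and 8 lower, among them Klf2 and Itga1. Itga1, an integrin chain that binds collagen, was at 0, 24.3, 13.7 and 17.1 CPM in panobinostat, givinostat, ruxolitinib and vehicle type 17 cells, against 46.0, 100, 36.3 and 85.2 CPM, a log2 fold change of -2.15 ± 0.32 (edgeR adjusted p 0.000839). In the JAK-STAT list Cish and Pim1 were higher and Jak1, Stat4 and Il2rb lower, of 17 tested. In the survival list 2 of 12 genes were higher (Bcl2a1b and Bcl2a1d) and 2 lower (Bcl2 and Bcl2l11). Bcl2, which blocks apoptosis, was lower by 2.46 ± 0.21 (edgeR adjusted p 1.61e-05), and the hexokinase Hk2 was higher by 3.84 ± 0.40 (edgeR adjusted p 6.57e-05). In the immediate early and stress list 8 of 29 genes were higher and 1 lower, and 4 of 11 effectors, Areg, Ltb, Tnf and Tnfsf11, were higher while 3, Ccl4, Ccl5 and Ifng, were lower, with a median of -0.29. Red blood cell genes stood beside this comparison, since the erythroid and endothelial list summed to 149, 309, 4020 and 125 CPM in panobinostat, givinostat, ruxolitinib and vehicle type 17 cells, against 4961, 146, 19796 and 4975 CPM in Xcl1 or Cd160 cells, and their part in the result was not tested. Of the promoter windows of the named genes, AGGTCA was found in 3 of 8 matched genes that were higher (Ccr6, Cpm and Tnfrsf25) and in 1 of 9 that were lower (Ncr1), beside 15.8% of all genes. TTCNNNGAA was found in 2 of the 8 (Ccr6 and Tnfrsf25) and in 3 of the 9 (Ifng, Klra7 and Nkg7), beside 8.13% of all genes.

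**Figure D3:**
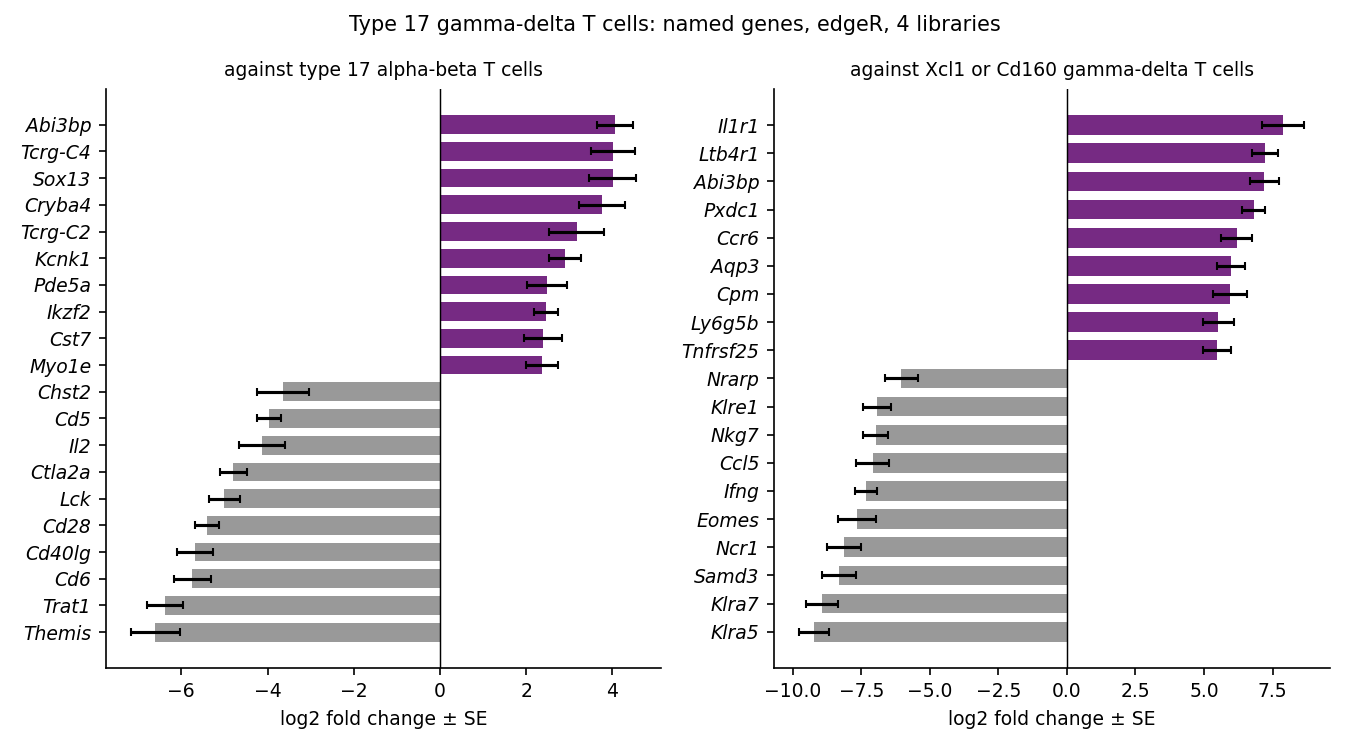
Log2 fold changes (horizontal axes) of the named genes in type 17 gamma-delta T cells against type 17 alpha-beta T cells (left) and against Xcl1 or Cd160 gamma-delta T cells (right), fitted by edgeR over 4 libraries, with error bars for 1 SE. Genes without a UMI, or with up to 3 UMIs, in 1 of the sets have fitted values that depend on the prior count, so their size is given by the bounds and ratios in the text.

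Receptor genes divided the type 17 gamma-delta T cells themselves. Trdv4, the variable segment of the Vdelta1 chain, had a UMI in 69 of 278 cells, 5830411N06Rik, a scavenger receptor gene next to Cd163l1 that is also known as Scart2, in 175, and both genes in 7. Of 45 cells with a UMI of Tcrg-V4, which encodes the Vgamma4 chain, 39 also had one of 5830411N06Rik and 4 one of Trdv4. Of the 69 Trdv4 cells 57 had a UMI of Cd163l1. Because droplets capture a fraction of the RNA, a cell without a UMI of these genes is not shown to lack them, and 41 cells had neither Trdv4 nor 5830411N06Rik. Cells were divided by these genes after the values were seen, and the levels below are a description without a test. Other gamma variable segments are not analysed here.

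The Trdv4 cells were rich in Pdcd1 and poor in Klf2. Pdcd1 was at 232, 241 and 123 CPM in Trdv4 cells of the givinostat, ruxolitinib and vehicle libraries, and at 19.9, 3.52 and 9.63 CPM in 5830411N06Rik cells without Trdv4. Klf2, a factor that keeps T cells in circulation, was at 244, 178 and 234 CPM in Trdv4 cells of the same libraries, against 1037, 1173 and 831 CPM. In both genes the 2 kinds of cells did not overlap in these 3 libraries. The panobinostat library had 3 Trdv4 cells, with no UMI of Pdcd1 and 1960 CPM of Klf2. Over all libraries the costimulatory receptor Tnfrsf9 was at 205 CPM in Trdv4 cells and 9.53 CPM in 5830411N06Rik cells, Zbtb16 at 148 and 41.0 CPM, Il1r1 at 160 and 64.8 CPM, and Tcrg-C1 at 740 and 238 CPM. The integrin Itgae, at 45.1 CPM in Trdv4 cells and 133 CPM in 5830411N06Rik cells, and the egress receptor S1pr1, at 41.3 and 115 CPM, went with Klf2.

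Il17a, Il17f and Blk are gate genes, and their levels in the receptor groups are a description. Cd163l1, also a gate gene, had a UMI in 57 of 69 Trdv4 cells and in 31 of 168 5830411N06Rik cells without Trdv4. Trdv4 cells could thus enter the gate more often through Cd163l1, and its part in these levels was not tested. Il17f was at 0, 134, 126 and 33.5 CPM in Trdv4 cells of the panobinostat, givinostat, ruxolitinib and vehicle libraries, against 498, 410, 155 and 388 CPM in 5830411N06Rik cells. It was lower in Trdv4 cells in every library, but panobinostat had 3 such cells and the ruxolitinib values lay close. Il17a was higher in Trdv4 cells in the givinostat library, at 3922 against 2771 CPM, and in the ruxolitinib library, at 4727 against 1388 CPM, but lower in the vehicle library, at 1617 against 2337 CPM. Blk was at 389 CPM in Trdv4 cells and 330 CPM in 5830411N06Rik cells.

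The share of Trdv4 cells was largest under givinostat. It was 17.6% of 17 gated cells under panobinostat, 37.3% of 102 (exact 95% interval 27.9 to 47.4%) under givinostat, 22.7% of 66 (13.3 to 34.7%) under ruxolitinib and 14.0% of 93 (7.66 to 22.7%) under vehicle. The givinostat interval lay above that of vehicle and overlapped that of ruxolitinib. After thinning every cell to 2900 UMIs the shares were 17.6%, 28.4%, 18.2% and 9.68% in the same order of libraries. In summed levels Trdv4 was at 178 CPM in givinostat cells and 47.4 CPM in vehicle cells, a ratio of 3.74 (2.44 to 5.97).

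**Figure D4:**
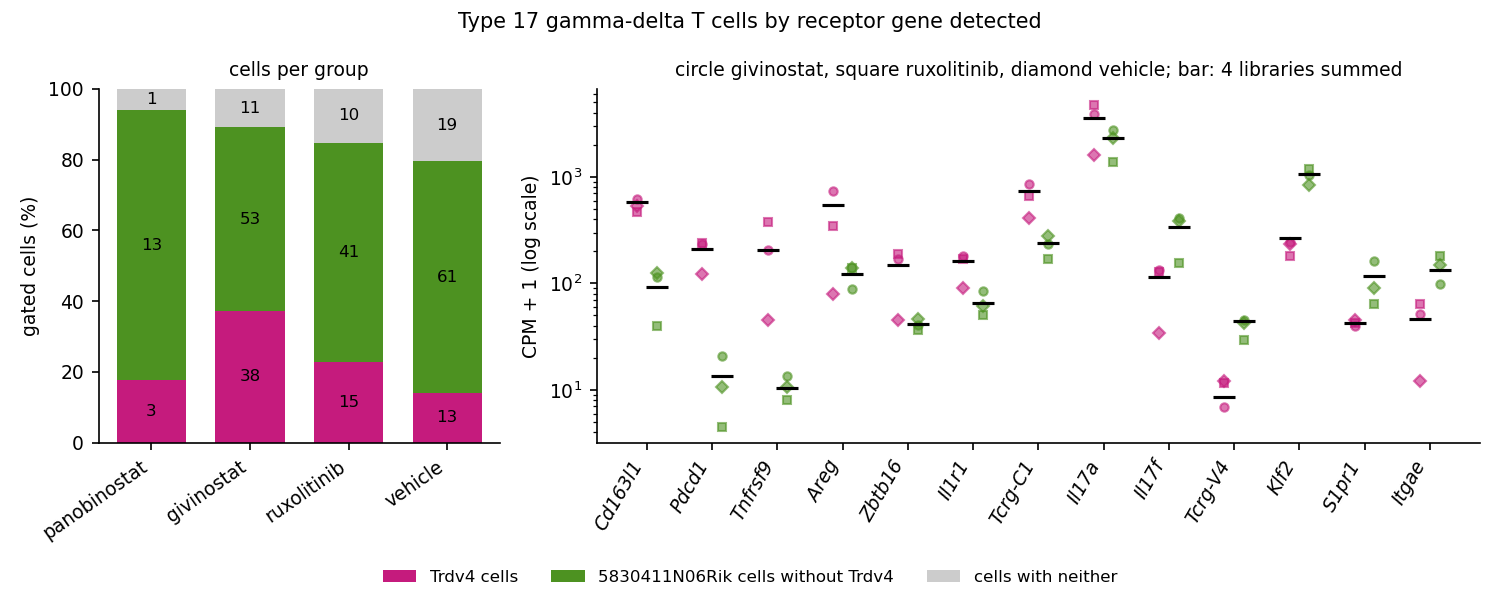
Left, share of gated cells (percent) with a UMI of Trdv4, with 5830411N06Rik and no Trdv4, or with neither, per library, with cell numbers. Right, levels (CPM + 1, log axis) in the first 2 groups; symbols are the givinostat, ruxolitinib and vehicle libraries and bars the sum over all 4 libraries, the 3 Trdv4 cells of panobinostat having no symbol of their own.

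Each drug was set beside vehicle to describe what the gated cells of treated kidneys expressed. The panobinostat sum rested on 17 cells and 67197 UMIs, so 1 UMI equalled 14.9 CPM, while givinostat, ruxolitinib and vehicle sums held 822067, 438777 and 527017 UMIs. Among genes with at least 100 CPM in either library, 99 of 1794 (5.52%) were at least 2-fold higher and 119 (6.63%) at least 2-fold lower under panobinostat, on the log2(CPM + 20) scale. With TMM totals these counts were 43 and 154, and with DESeq2 size factors 41 and 163, and the median of all genes was 0.131 with library totals, -0.0775 with TMM and -0.0956 with DESeq2. Under givinostat 21 of 1683 genes (1.25%) were higher and 34 (2.02%) lower, and under ruxolitinib 19 of 1627 (1.17%) were higher and 21 (1.29%) lower. Of the type 17 transcription factors measured, none of 12 under panobinostat, none of 13 under givinostat and none of 10 under ruxolitinib was past 2-fold in either direction. Of 22 type 17 receptors and surface genes measured under panobinostat, 3 were past 2-fold higher (Cxcr6, Il2ra and 5830411N06Rik) and 1 lower (Actn2), and without doublet-like cells 1 was higher (Il2ra) and 2 lower (Itgae and Actn2). None of 23 such genes under givinostat and none of 22 under ruxolitinib was past 2-fold.

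Klf2, Nr4a1, Fos and Dusp4 were among the genes higher in panobinostat cells. Klf2 was at 1801 CPM in panobinostat cells and 748 CPM in vehicle cells, a ratio of 2.41 (1.95 to 2.96), which was 1.82 (1.41 to 2.33) without the cell richest in Klf2 in each library. The orphan nuclear receptor Nr4a1, induced by T cell receptor signals, was at 774 against 277 CPM, a ratio of 2.79 (1.99 to 3.86), and the immediate early gene Fos at 3229 against 1605 CPM, a ratio of 2.01 (1.72 to 2.34). Dusp4, a phosphatase of MAP kinases, was at 179 against 28.5 CPM, a ratio of 6.27 (2.68 to 14.4), but 6 of its 12 UMIs came from 1 cell, and the ratio was 3.56 (1.1 to 9.86) without the richest cell of each library. These 4 ratios stayed above 1, with their intervals, when the richest cell was left out. Ccr10, a chemokine receptor, rested on 2 cells in each library, and Cdkn2aip and Impa2 rested on 7 to 10 UMIs in panobinostat cells. Of 17 residency, homing and activation genes measured, 4 were past 2-fold higher (Cxcr6, Klf2, Il2ra and Nr4a1) and none lower, with a median of 0.32 beside 0.13 over all genes. Without doublet-like cells 2 were higher (Il2ra and Nr4a1) and 1 lower (Itgae), with a median of 0.15 beside 0.066, so Cxcr6 and Klf2 were no longer past 2-fold. Of 25 immediate early and stress genes 1, Nfkbid, was past 2-fold higher, a share close to that over all genes, and without doublet-like cells 2 others were, Jun and Atf3. The list of genes known to rise with deacetylase inhibition had 0 of 8 measured members past 2-fold higher and 2 lower, Clu and Mt1. Over all genes 5.52% were past 2-fold higher and 6.63% lower. Without doublet-like cells 6 were measured, and Cdkn1a alone was past 2-fold lower.

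Lower genes under panobinostat included markers of other cells. Cxcl10, an interferon-induced chemokine, had no UMI in panobinostat cells and 178 CPM in vehicle cells, which allows a ratio of up to 0.314. Actn2, an actinin known as a marker of type 17 gamma-delta T cells, was at 14.9 CPM in panobinostat cells and at 125, 146 and 137 CPM in givinostat, ruxolitinib and vehicle cells, a ratio to vehicle of 0.109 (0.00272 to 0.627). Crem, a cAMP-response factor, was at 29.8 against 144 CPM, a ratio of 0.206 (0.0246 to 0.772), and the splicing factor Hnrnpa1 at 134 against 342 CPM, a ratio of 0.392 (0.176 to 0.761). Ddx50 was at 14.9 against 118 CPM. S100a9, Fabp5 and Npnt were also among the 8 lowest, but 58 of 92, 86 of 103 and 42 of 53 of their vehicle UMIs came from 1 cell. All 7 measured myeloid markers and all 8 measured proximal tubule markers were past 2-fold lower, and without the doublet-like cells none of the 2 myeloid and 5 tubule markers still measured was. The 119 lower genes became 47 without those cells.

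In givinostat cells the higher genes included checkpoint receptors. Pdcd1 was at 118 CPM in givinostat cells and 39.8 CPM in vehicle cells, a ratio of 2.96 (1.83 to 5.0), and Ctla4 at 122 against 39.8 CPM, a ratio of 3.05 (1.89 to 5.15). Pdcd1 had a UMI in 34 of 102 givinostat and 10 of 93 vehicle cells, and Ctla4 in 34 and 14. In the cells divided by receptor gene, Pdcd1 was at 232 CPM in givinostat and 123 CPM in vehicle Trdv4 cells and at 19.9 and 9.63 CPM in 5830411N06Rik cells, beside the larger Trdv4 share of the givinostat library. The nuclear receptor Nr4a2 was at 265 against 116 CPM, a ratio of 2.29 (1.72 to 3.10), and Rbpj, the DNA-binding partner of Notch, at 279 against 120 CPM, a ratio of 2.33 (1.76 to 3.13). Gcnt2, a glycosyltransferase, was at 212 against 72.1 CPM, and the GTPase Gimap6 at 117 against 39.8 CPM. Areg, the tissue repair ligand amphiregulin, was at 347 against 116 CPM, a ratio of 3.0 (2.26 to 4.02), but 164 of its 285 UMIs came from 1 cell, and the ratio was 1.45 (1.04 to 2.03) without the richest cell of each library. Gfod2 had 106 of its 107 UMIs in 1 cell.

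Lgals3 was lower in givinostat cells than in vehicle cells. It encodes galectin 3, a lectin of macrophages and activated lymphocytes, and was at 141 CPM in givinostat cells and 848 CPM in vehicle cells, a ratio of 0.166 (0.134 to 0.205). A UMI was found in 44 of 102 givinostat and 85 of 93 vehicle cells, although givinostat cells were deeper. Without doublet-like cells the ratio was 0.168 (0.133 to 0.212). Ruxolitinib cells, at 310 CPM, were between the 2, with a ratio to vehicle of 0.365 (0.299 to 0.444), and panobinostat cells were at 655 CPM. Cells without a Cd3 UMI held 303 CPM of Lgals3 over all libraries, and the part of free RNA in these values was not tested. In type 17 alpha-beta T cells the level was 427, 260, 348 and 494 CPM under panobinostat, givinostat, ruxolitinib and vehicle. The other named genes were lower by less than 2-fold, as with the zinc finger factor Klf4 (ratio 0.648, 0.560 to 0.749), Pxdc1 (0.614, 0.490 to 0.768) and Crip1 (0.772, 0.705 to 0.846), or rested on few vehicle cells, as with S100a9 (3 cells) and Fabp5 (86 of 103 UMIs in 1 cell). All 7 measured myeloid markers were also past 2-fold lower. The count of lower genes was 34 with all gated cells and 1, Lgals3, without doublet-like cells.

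The JAK kinases that ruxolitinib inhibits act downstream of the receptors for interleukin 2 and the interferons. In ruxolitinib cells the 8 JAK-STAT genes measured had a median of 0.016 on the log2(CPM + 20) scale, beside 0.011 over all genes. None of the 8 was past 2-fold, but over all genes only 1.17% were higher and 1.29% lower. The count therefore does not tell this list from other genes. Cish, a feedback inhibitor that STAT5 induces, was at 242 CPM in ruxolitinib cells and 254 CPM in vehicle cells, and Socs3, which STAT3 induces, at 219 and 252 CPM. Their ratios, 0.95 and 0.867, had intervals of 0.729 to 1.235 and 0.660 to 1.136, and both genes were chosen after their values were seen. None of 5 interferon response genes measured was past 2-fold, a count that likewise does not tell them from other genes. Cxcl10, which interferon also induces, was at 18.2 CPM in ruxolitinib cells and 178 CPM in vehicle cells, a ratio of 0.102 (0.0429 to 0.210). Without doublet-like cells the Cxcl10 ratio was 0.133 (0.0515 to 0.291), and 1 of the 5 interferon response genes, Irf1, was past 2-fold lower. Cxcl10 was at 0 CPM in panobinostat cells and 286 CPM in givinostat cells, so the signal came mainly from givinostat and vehicle cells.

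Higher genes under ruxolitinib were led by S100a9, Bambi and Nr4a2. Bambi, a decoy receptor for TGF-beta, was at 134 CPM in ruxolitinib cells and 28.5 CPM in vehicle cells, a ratio of 4.72 (2.65 to 8.97), found in 11 cells of each library. Nr4a2 was at 273 against 116 CPM, a ratio of 2.36 (1.72 to 3.27), and the phosphatase Dusp2 at 194 against 77.8 CPM, a ratio of 2.49 (1.70 to 3.71). Cnot6l, Mef2a and Rif1 had ratios between 2.34 and 2.56, but 20 of the 49 UMIs of Rif1 came from 1 cell, and its ratio was 1.66 (0.916 to 3.07) without the richest cells. S100a9, a neutrophil protein, and the chemokine Cxcl2 were carried by single cells, with 192 of 312 and 93 of 120 UMIs in 1 cell, and Cxcl2 was at a ratio of 0.889 (0.522 to 1.5) without the richest cells. Among the lower genes Kbtbd11, Sap18 and Rassf1 had ratios of 0.317 to 0.420. Red blood cell genes were past 2-fold higher in ruxolitinib cells (Hbb-bs, Hba-a1 and Hba-a2), and their part in the other values was not tested.

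**Figure D5:**
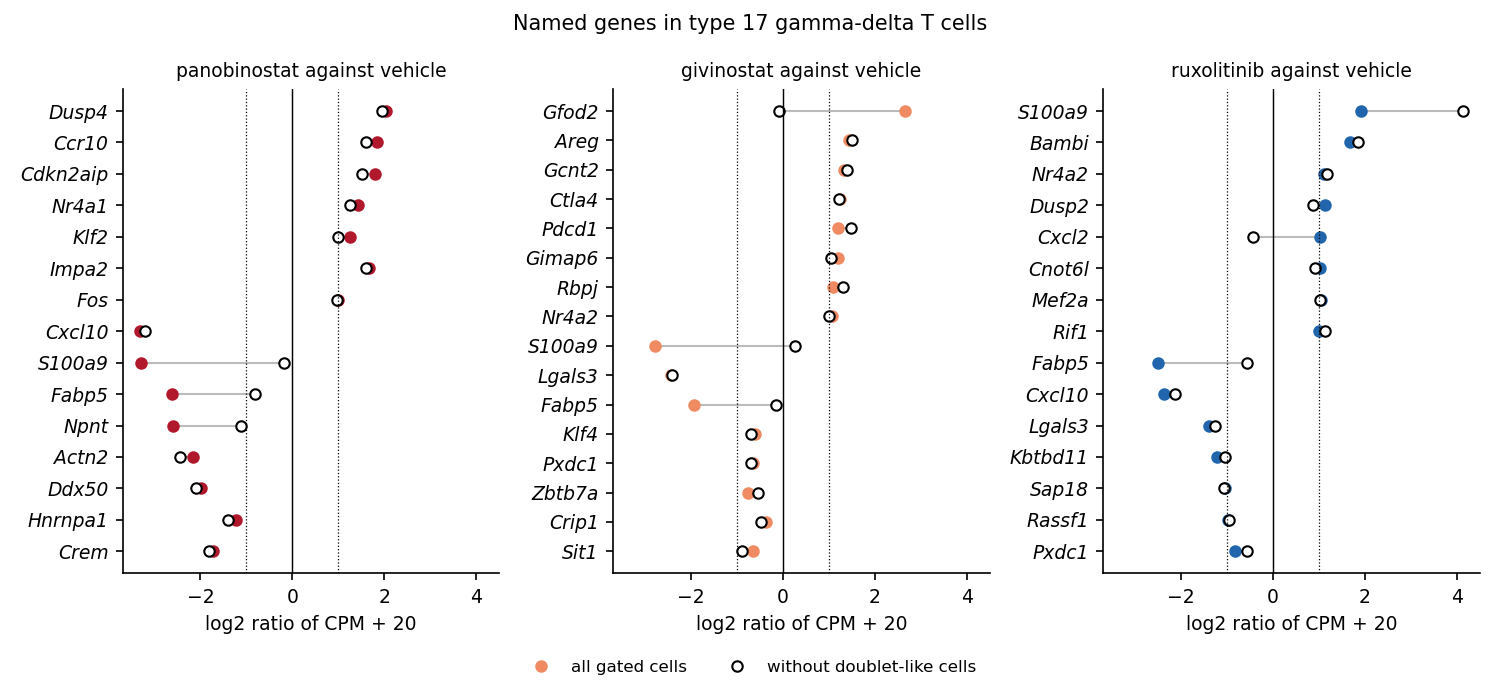
Log2 ratio of (CPM + 20) of each drug library over vehicle (horizontal axes) for the named genes of each drug, with all gated cells (filled) and without doublet-like cells (open); dotted lines mark 2-fold. S100a9, Fabp5, Gfod2 and Cxcl2 shift far between the 2 settings, while Lgals3 under givinostat keeps a ratio of 0.166 and 0.168.

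Panobinostat and givinostat, both hydroxamate inhibitors of histone deacetylases, were given at different doses, and their values are set side by side without a comparison. Gated cells were 0.387% of kept cells under panobinostat and 2.94% under givinostat. Klf2 was at 1801 CPM under panobinostat and 687 CPM under givinostat, Lgals3 at 655 and 141 CPM, and Pdcd1 at 14.9 and 118 CPM.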

How the data were processed

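Kidney cells of 4 treatment groups were measured as 1 droplet library each. The deposited values are raw UMI counts per gene and cell, which the authors made with Cell Ranger 3.0.1 on mm10, per the submitters' processing notes; how cells were told from empty droplets is not given in the sources used here. The vehicle library was mapped by its file's control suffix, the other 3 suffixes naming the drugs. Of 16003 deposited cells, 226 with under 200 genes were removed. Deposited cells already started at 2920 to 5272 UMIs, depending on the library.

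UMIs were summed per library and cell set. Cell sets were compared with edgeR 4.0.16 (R 4.3.3) by glmQLFit and glmQLFTest after filterByExpr and TMM, with library as a block because both sets come from the same library, and with Benjamini-Hochberg adjustment over all genes tested. DESeq2 1.42.0 was an alternative. The step was tested on simulated data. Each drug was set beside vehicle by CPM, with exact 95% intervals that cover counting error only, and a gene counted as past 2-fold on log2(CPM + 20) with at least 100 CPM in either library. Ratios against a set at 0 use a floor of 3 UMIs over the set. To compare shares across depths, cells were thinned to 2900 UMIs.

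The text names the 10 genes furthest up and down at an adjusted p under 0.05, in the same direction in all 4 libraries and with at least 50 CPM in 1 set, and per drug the 8 furthest up and down by the interval bound nearest 1. Gate, mitochondrial, ribosomal, immunoglobulin, haemoglobin, unnamed and variable segment genes were left out, as were genes higher in cells without Cd3. Members of the gene lists, gate genes and markers are named besides, list members often after their values were seen. The gate, its members and the lists were chosen with earlier results of these data known. Genes were matched to GENCODE vM21 (16519 of 16706 symbols), and promoters come from RefSeq on GRCm38.p6. Some genes, among them genes the rule would name, are not reported here.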

Additional observations from a re-analysis of the deposited data

Results flagged for a closer look

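Among 40 gene comparisons, each with 4 libraries, 3 had 1 library far from the other 3 (a gap to the nearest library beyond the 95% critical value of Dixon's test, which chance gives in about 1 in 20 such groups). The values are differences in log2(CPM + 20). Tcrg-C2 in type 17 gamma-delta against type 17 alpha-beta T cells differed by 0.48 in the ruxolitinib library, beside 3.08 in panobinostat, 2.84 in givinostat and 2.94 in vehicle. Abi3bp in type 17 against Xcl1 or Cd160 gamma-delta T cells differed by 4.29 in the panobinostat library, beside 3.16, 3.05 and 3.09 in givinostat, ruxolitinib and vehicle. Ccr6 in the same comparison differed by 2.80 in the panobinostat library, beside 2.48, 2.47 and 2.42. The causes were not tested.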

How the results depend on the processing

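With 1 library per treatment, drug values have no replicate check, and 17 panobinostat cells limit them most. The share ratio to vehicle was 0.0496 (panobinostat), 4.0 (givinostat) and 1.44 (ruxolitinib, turned round) with all libraries held to the highest floor, 0.325, 0.515 and 0.269 without cells with 2 or more alpha-beta receptor UMIs, and 0.313 for panobinostat among Cd3 cells; the other 20 alternatives differed less.

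In the paired fit, library is the block. Without the replicate block, 62 genes were higher and 40 lower against alpha-beta cells, and 360 and 337 against Xcl1 or Cd160 cells; DESeq2 gave 59, 42, 233 and 251. With no count filter the counts were 141, 87, 519 and 448, and without cells with alpha-beta receptor UMIs 8, 13, 93 and 87, with 816 and 1780 genes tested. Leaving out 1 library at a time gave 32 to 50 higher and 29 to 37 lower genes against alpha-beta cells, and 221 to 309 and 194 to 332 against Xcl1 or Cd160 cells. Among alternatives for the named genes of both comparisons in which the gene was tested, 310 kept call and direction and 5 lost the call. Cases in which an alternative did not test the gene are in neither count. Without cells with 2 or more alpha-beta receptor UMIs, 16 of the 105 calls against alpha-beta cells and 164 of the 676 against Xcl1 or Cd160 cells were kept.

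Drug counts moved past 1.5-fold in 29 of 60 alternatives. Alpha-beta receptor cells here are gated cells with 2 or more UMIs over Trac, Trbc1 and Trbc2. Without them 4, 5, 3 and 11 cells were left in the panobinostat, givinostat, ruxolitinib and vehicle libraries. Under panobinostat the higher genes numbered 43 with TMM, 41 with DESeq2 factors, 34 with a pseudocount of 50, 340 with no filter, 26 at 200 CPM and 666 without alpha-beta receptor cells, and the lower genes 904 with no filter, 38 at 200 CPM, 418 without alpha-beta receptor cells and 47 without doublet-like cells. Under givinostat the higher genes numbered 13 with a pseudocount of 50, 69 with no filter, 7 at 200 CPM and 469 without alpha-beta receptor cells, and the lower genes 91, 15 and 325 under the last 3 settings, 1 without doublet-like cells and 16 after thinning. Under ruxolitinib the higher genes numbered 11, 75, 7 and 686 under the first 4 settings, 9 with 1 or more gate UMIs and 34 after thinning, and the lower genes 63 with no filter, 12 at 200 CPM, 421 without alpha-beta receptor cells and 9 without doublet-like cells. The causes were not tested.

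The JAK-STAT median under panobinostat was -0.187 with no filter, against 0.457 as reported. Directions turned round for Areg (-3.30) and Rbpj (-0.67) under givinostat without gated cells with 2 or more alpha-beta receptor UMIs, which left 5 givinostat and 11 vehicle cells. They also turned round for Gfod2 under givinostat without the richest cell (-0.046), and for Cxcl2 under ruxolitinib without doublet-like cells (-0.44) and without the richest cell (-0.13).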
